A study of Homo sapiens with 6 samples.

Results

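The polyamine genes described here are 10 genes that make, regulate and break down putrescine, spermidine and spermine. They were chosen by symbol in the platform annotation, and 10 of 10 have a probe set, among 14812 named genes on the array. Gene expression was measured on Affymetrix arrays in LS180, an established human colorectal adenocarcinoma cell line. The cells had been transfected with an siRNA against CTNNB1, the gene of the Wnt effector beta-catenin, with an siRNA against the transcription factor gene MYC, or with an siRNA against MYU, a long non-coding RNA listed on the array as VPS9D1-AS1. Each knockdown had 1 array and was set against 1 control siRNA array named for it in its title, which gives 6 arrays in 3 pairs. The CTNNB1 and MYC controls carry the same number in their titles, and the MYU control carries a different number, whose meaning is not given. The labels also do not give siRNA dose and time of harvest. The treatment tag of the CTNNB1 array reads CTNNB2, whereas its title and source name give CTNNB1.

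Polyamines are small, positively charged molecules that bind nucleic acids, and proliferating cells, those of the intestinal epithelium included, need them for translation and growth. Ornithine decarboxylase, encoded by ODC1, makes putrescine from ornithine. AMD1 encodes the decarboxylase that turns S-adenosylmethionine into the aminopropyl donor, with which spermidine synthase (SRM) extends putrescine and spermine synthase (SMS) extends spermidine. Antizymes (OAZ1, OAZ2) bind ornithine decarboxylase and send it to the proteasome, and the antizyme inhibitor AZIN1 takes antizyme away from it. SAT1 acetylates spermidine and spermine, PAOX oxidises the acetylated forms, and SMOX oxidises spermine directly. ODC1 is a classic MYC target gene.

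Promoter windows of ODC1, SRM and SMS are shown first. The SRM window and 1 of 2 ODC1 windows hold the E-box CACGTG, the sequence that MYC binds with its partner MAX. The SMS window does not hold it, and neither do the 3 AMD1 windows, which are not shown. Whether the motif goes with the differences below was not tested. The sequences are RefSeq's on GRCh38.p14. Each runs 5′ to 3′ on the gene's strand over 300 bases, 250 before an annotated transcription start and 50 after it, and capitals mark the E-box. The ODC1 window is chr2:10447963-10448262, the SRM window chr1:11059969-11060268 (minus strand in each case), and the SMS window chrX:21940459-21940758 on the plus strand.
ODC1: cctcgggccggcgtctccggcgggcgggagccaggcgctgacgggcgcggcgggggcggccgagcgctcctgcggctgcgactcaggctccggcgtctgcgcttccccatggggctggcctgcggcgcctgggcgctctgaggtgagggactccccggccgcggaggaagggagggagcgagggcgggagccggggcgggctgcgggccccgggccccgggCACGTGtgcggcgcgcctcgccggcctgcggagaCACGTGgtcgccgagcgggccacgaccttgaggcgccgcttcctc
SRM: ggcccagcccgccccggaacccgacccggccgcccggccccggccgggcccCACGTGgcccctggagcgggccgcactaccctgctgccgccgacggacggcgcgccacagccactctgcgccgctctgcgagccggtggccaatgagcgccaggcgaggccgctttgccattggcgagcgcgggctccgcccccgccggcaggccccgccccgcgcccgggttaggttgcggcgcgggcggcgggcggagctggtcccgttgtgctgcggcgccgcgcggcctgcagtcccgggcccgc
SMS: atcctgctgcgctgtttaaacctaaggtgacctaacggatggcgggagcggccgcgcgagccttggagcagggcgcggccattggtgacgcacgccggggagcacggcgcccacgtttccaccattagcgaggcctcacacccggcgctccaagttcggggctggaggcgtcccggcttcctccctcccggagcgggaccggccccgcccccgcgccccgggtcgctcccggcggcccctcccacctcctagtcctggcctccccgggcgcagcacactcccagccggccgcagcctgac

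The ODC1 window belongs to the more downstream of the gene's listed starts, which lie 315 bases apart. It holds 2 E-boxes, the first beginning 29 bases before that start. The window of the other ODC1 start holds none. In SRM the E-box begins 199 bases before the start. Of the 10 genes, 7 have windows in the table (ODC1, AMD1, SRM, SMS, OAZ1, OAZ2 and SAT1), and 2 of these 7 hold an E-box in a window. Counted by gene in the same way, 8.77% of 27305 genes hold it in a window, and counted by window 7.26% of 35116 do. The sequence reads the same on either strand, and 0.664% of windows hold it at least 2 times. A motif of TCF and LEF factors, CTTTGAA, is held on either strand by 5.47% of all genes (4.43% of windows) and by 0 of the 7 genes. The cAMP response element, TGACGTCA, is held by 2.25% of genes (1.85% of windows) and again by 0 of the 7 genes. The TATA motif, searched as TATAAA on both strands, is held by 14.0% of genes (11.5% of windows) and, of the 7 genes, by OAZ1. The OAZ1 match lies after the annotated start, beginning at base 7 counted from it. No match overlapped another in the windows of these genes. A match describes the letters of the window, and no match says only that these letters are not in it.

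Values below are log2 differences, knockdown array minus its own control array, where the authors had centred the 2 arrays of a pair on 0. The log base was assumed to be 2. Each polyamine gene has 1 probe set. A gene is called measured where a probe set carries its symbol alone in the platform annotation. Whether other genes lie among the 28794 unlisted probe sets is not known. A difference rests on 1 array against 1, without replicates or a p-value, and "higher" and "lower" refer to those arrays alone. Levels were lost in the centring, so neither the abundance of a transcript nor the cell type markers can be read as levels. As a yardstick of measurement within a pair, the differences of probe sets of the same gene were compared (651 genes with several probe sets). Their median standard deviation was 0.10 with CTNNB1 siRNA, 0.08 with MYC siRNA and 0.06 with MYU siRNA. This yardstick holds no variation between repeat arrays or cultures, and a gap between genes varies more than a single value. A single probe set is read as 2-fold apart at a difference of 1 and as 1.5-fold apart at 0.585.

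The targeted transcripts had these values. MYC differed by -2.38 with CTNNB1 siRNA, by -1.18 with MYC siRNA and by 0.04 with MYU siRNA. VPS9D1-AS1 differed by -0.53, -0.24 and -0.50 in the same order of pairs. In its own pair, with MYU siRNA, it was 1.41-fold lower, short of 1.5-fold, and in the CTNNB1 pair it was 1.44-fold lower. CTNNB1 itself was not analysed here. Markers of other cells were compared as differences: of 3 fibroblast markers measured of 7 listed, LUM was at 2.78 in the CTNNB1 pair with DCN at 0.01 and THY1 at -0.04, and of 3 leukocyte markers measured of 6, CD68 was at 2.65 there with CD14 at -0.03 and LYZ at -0.23. In the MYC and MYU pairs these 6 markers lay between -0.06 and 0.74. Of 8 epithelial markers measured of 9, 4 were at least 2-fold higher in the CTNNB1 pair (KRT20, KRT19, CEACAM5 and VIL1), as was KRT20 alone in the MYC pair (1.16). KRT20 was at -0.73 in the MYU pair, past 1.5-fold, and CDX2 was at -0.42, -0.29 and -0.02 with CTNNB1, MYC and MYU siRNA. The part of these markers in the polyamine values was not tested. In RNA of a whole LS180 culture, the share of cells with a transcript and its amount per cell cannot be told apart.

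With CTNNB1 siRNA the 4 genes of polyamine synthesis were lower together, while the antizyme and turnover genes lay closer to 0. SRM, ODC1 and AMD1 were at least 2-fold lower, so 3 of 10 polyamine genes passed that threshold, beside 4.14% of all named genes. None of the 10 was 2-fold higher, beside 2.8% of all genes. At 1.5-fold 4 of 10 were lower, beside 9.8% of all genes, and 0 were higher, beside 6.44%. The median of the 10 was -0.45, with a range of -1.86 to 0.32, and the median of all genes was 0. Genes that the cells may not express remain among all genes, since levels are not known.

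SRM, the spermidine synthase gene, had the lowest value of the group. Its centred values were -0.93 in the CTNNB1 siRNA array and 0.93 in the control array, a difference of -1.86, or 3.62-fold lower. Of all named genes, 0.527% lay below it. ODC1, the gene of the first enzyme of the pathway, stood at -0.69 in the CTNNB1 siRNA array and 0.69 in the control array. That is a difference of -1.39, or 2.61-fold lower, with 1.86% of genes below it.

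AMD1, which supplies the aminopropyl donor, stood at -0.53 in the CTNNB1 siRNA array and 0.53 in the control array, a difference of -1.06 and 2.09-fold lower. SMS, the spermine synthase gene, stood at -0.39 and 0.39 in the same arrays, a difference of -0.78 and 1.72-fold lower. The order from lowest was therefore SRM, ODC1, AMD1, SMS, and each step between neighbours, from 0.28 to 0.47, was wider than the yardstick of 0.10. Whether the order would repeat in other arrays is not known. The mean of the 4 synthesis genes was -1.27 ± 0.46 (SD over genes, n = 4).

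Among the regulators of ornithine decarboxylase, the antizyme inhibitor gene AZIN1 stood at -0.29 in the CTNNB1 siRNA array and 0.29 in the control array. Its difference of -0.578, or 1.49-fold lower, lay just short of the 1.5-fold threshold, and centring each array on its median took it just past that threshold, at -0.586. The antizyme gene OAZ1 stood at 0.13 in the CTNNB1 siRNA array and -0.13 in the control array, a difference of 0.25. OAZ2, the second antizyme gene, differed by -0.03. The log2 difference of ODC1 minus that of AZIN1 was -0.81, and minus that of OAZ1 it was -1.64.

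The turnover genes did not reach 1.5-fold in this pair. SAT1, the acetyltransferase gene, differed by -0.31, the oxidase gene PAOX by 0.01 and the spermine oxidase gene SMOX by 0.32. The accession listed for the SAT1 probe set is that of a non-coding SAT1 transcript, so coding and non-coding SAT1 RNA cannot be separated here. The mean of the 3 turnover genes was 0.01 ± 0.32 (SD over genes, n = 3), and the synthesis mean lay below it by -1.28. A shift of a whole array would cancel in that contrast.

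With MYC siRNA the same 4 synthesis genes were below 0, at smaller sizes. None of the 10 polyamine genes was 2-fold lower, beside 0.446% of all genes, and none was 2-fold higher, beside 0.412%. At 1.5-fold only SRM was lower, 1 of 10 beside 3.63% of all genes, and 0 were higher, beside 2.15%. The median of the 10 was -0.16, with a range of -0.65 to 0.36, and the median of all genes was 0.

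SRM again had the lowest value. It stood at -0.33 in the MYC siRNA array and 0.33 in the control array, a difference of -0.65, or 1.57-fold lower, with 2.64% of genes below it. ODC1 stood at -0.16 in the MYC siRNA array and 0.16 in the control array. Its difference was -0.33, or 1.26-fold lower, and 9.75% of all genes lay below it.

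AMD1 differed by -0.34 and SMS by -0.22. AMD1, ODC1, SAT1 and SMS followed each other in steps of 0.01 to 0.05, each below the yardstick of 0.08, so no neighbours in this order are told apart. The mean of the 4 synthesis genes was -0.39 ± 0.19 (SD over genes, n = 4).

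OAZ1 had the highest value of the group in the MYC pair. It stood at 0.18 in the MYC siRNA array and -0.18 in the control array, a difference of 0.36, or 1.28-fold higher, with 6.71% of genes above it. OAZ2 differed by 0.11 and AZIN1 by -0.08. The log2 difference of ODC1 minus that of OAZ1 was -0.69.

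Among the turnover genes SAT1 differed by -0.27, PAOX by -0.10 and SMOX by 0.07 in the MYC pair, with a mean of -0.10 ± 0.17 (SD over genes, n = 3). The synthesis mean minus the turnover mean was -0.29, against -1.28 in the CTNNB1 pair. The differences of the CTNNB1 pair were wider over all named genes, with a standard deviation of 0.51 beside 0.28 in the MYC pair. The controls of these 2 pairs carry the same number in their titles, and whether they are 1 hybridisation is not known, so values of the pairs are given side by side and their likeness is not tested.

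With MYU siRNA the synthesis genes did not lie on 1 side of 0. None of the 10 polyamine genes was 2-fold lower, beside 0.0945% of all genes, or 2-fold higher, beside 0.0608%. None was 1.5-fold lower, beside 1.21%, or 1.5-fold higher, beside 0.668%. The median of the 10 was 0.05, with a range of -0.42 to 0.46, and the median of all genes was 0.

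The genes of the aminopropyl transfer enzymes stood at opposite ends of the group in the MYU pair. SRM stood at 0.23 in the MYU siRNA array and -0.23 in the control array, a difference of 0.46, or 1.37-fold higher, with 1.73% of all genes above it. SMS stood at -0.21 in the MYU siRNA array and 0.21 in the control array, a difference of -0.42, or 1.34-fold lower, with 3.03% of genes below it. The difference of SRM minus that of SMS was 0.88 in the MYU pair, whereas it was -1.07 with CTNNB1 siRNA and -0.43 with MYC siRNA. No shift of a whole array changes these contrasts.

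ODC1 stood at -0.11 in the MYU siRNA array and 0.11 in the control array, a difference of -0.22 with 10.5% of genes below it. AMD1 differed by -0.14. AZIN1 differed by 0.01, OAZ1 by 0.20 and OAZ2 by 0.09. Among the turnover genes SMOX stood at 0.15 in the MYU siRNA array and -0.15 in the control array, a difference of 0.30 with 4.90% of genes above it, while SAT1 differed by 0.15 and PAOX by -0.04.

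**Figure D1:**
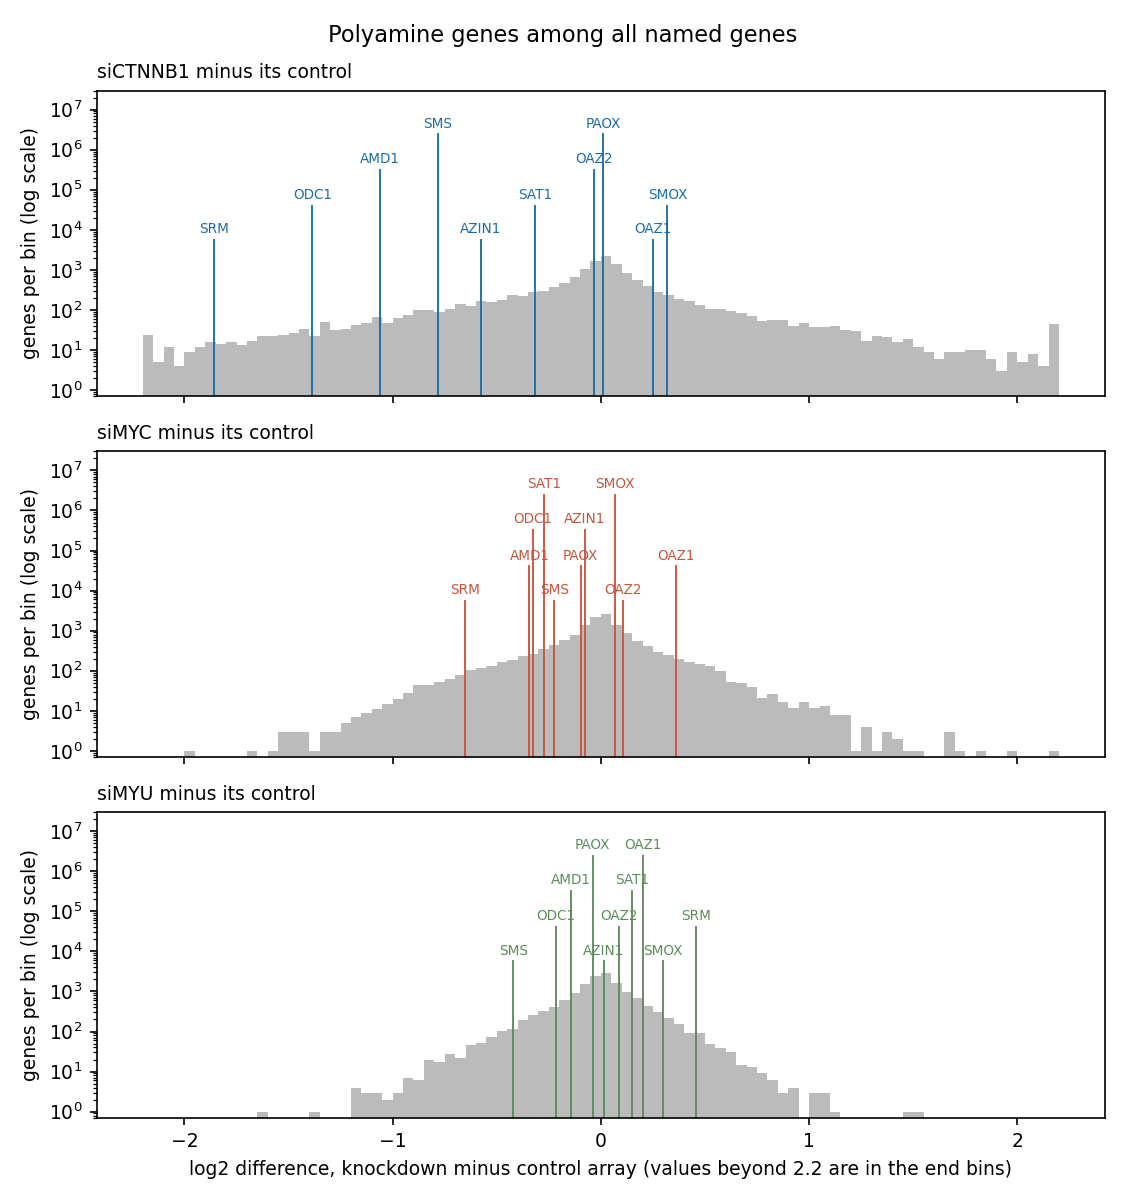
Grey bars count all 14812 named genes by log2 difference (x axis, knockdown minus control; y axis, genes per bin on a log scale) in the CTNNB1 (top), MYC and MYU (bottom) pairs, and coloured lines mark the 10 polyamine genes. In the CTNNB1 pair SRM stands in the lower tail with 0.527% of genes below it, and in the MYU pair it stands in the upper tail with 1.73% of genes above it.

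Across the 3 pairs, the values of single genes spread by very different amounts. SRM had the widest range, 2.31 between its CTNNB1 and MYU values, followed by ODC1 with 1.17 and AMD1 with 0.92. AZIN1 ranged over 0.59, SMS over 0.56 and SAT1 over 0.46. SMOX (0.25), OAZ1 (0.16), OAZ2 (0.14) and PAOX (0.11) had the narrowest ranges. ODC1, AMD1 and SMS were below 0 in all 3 pairs, and OAZ1 and SMOX were above 0 in all 3, with SMOX in the MYC pair (0.07) nearer to 0 than the yardstick of 0.08. For 7 of the 10 genes the lowest value of the 3 was that of the CTNNB1 pair. The exceptions were PAOX and SMOX, lowest with MYC siRNA, and OAZ1, lowest with MYU siRNA. The share of all named genes lowest in the CTNNB1 pair was not computed. The share on 1 side of 0 in all 3 pairs was not computed either. Over all named genes the differences had a standard deviation of 0.51 in that pair, beside 0.28 with MYC siRNA and 0.20 with MYU siRNA. The signs, the count and the ranges are therefore not read as a trait of the polyamine genes.

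The genes with the most similar pattern over the 3 differences were taken among protein-coding genes by Euclidean distance, which is a description over 3 pairs. For ODC1 they were FZD3 (distance 0.07), PAXBP1 (0.09) and PSIP1 (0.11). For AMD1 they were GNPDA2 (0.06), MRPS30 (0.07) and ERH (0.08). For SRM they were LARGE2 (0.14), TRAP1 (0.19) and CDK1 (0.20), farther off than the neighbours of ODC1 and AMD1.

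The genes around the core pathway were read from 5 lists, and where 3 values of a gene follow each other they are those of the CTNNB1, the MYC and the MYU pair. Of all named genes, 4.14% were 2-fold lower and 2.8% higher in the CTNNB1 pair. These shares were 0.446% and 0.412% in the MYC pair, and 0.0945% and 0.0608% in the MYU pair. In the CTNNB1 pair AOC1, the diamine oxidase gene whose product breaks down putrescine, was 2.91-fold higher (1.54), and its values were 0.56 with MYC siRNA and -0.13 with MYU siRNA. AGMAT, listed as agmatinase, an enzyme of another route to putrescine, had values of -0.90, -1.27 (2.41-fold lower) and 0.31. SAT2, a relative of SAT1, had values of 0.58, 0.63 and 0.43. Of the 8 measured of 9 listed family members and other oxidases, 1 was 2-fold higher and 0 were lower in the CTNNB1 pair (median 0.13), 1 was 2-fold lower and 0 were higher in the MYC pair (median 0.08), and 0 were 2-fold apart in the MYU pair (median 0.03).

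The precursor supply genes did not share 1 direction. ASS1, which makes argininosuccinate on the way to arginine, was 4.20-fold higher with CTNNB1 siRNA (2.07) and 2.02-fold higher with MYU siRNA (1.02), and it was at 0.33 with MYC siRNA. ASL, the next enzyme of that branch, had values of 0.60, 0.03 and 0.35. MTR, the methionine synthase gene on the route to S-adenosylmethionine, was 3.22-fold lower with CTNNB1 siRNA (-1.69) and 2.45-fold lower with MYC siRNA (-1.29), and it was at -0.54 with MYU siRNA. AHCY, which clears S-adenosylhomocysteine, had values of -0.94, -0.20 and 0.28. OAT, which interconverts ornithine and glutamate semialdehyde, had values of -0.03, 0.36 and 0.46. Of 11 genes listed 5 were measured, and 1 was 2-fold lower and 1 higher in the CTNNB1 pair (median -0.03), 1 lower and 0 higher in the MYC pair (0.03), and 0 lower and 1 higher in the MYU pair (0.35).

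Methylthioadenosine is the by-product of aminopropyl transfer, and its salvage genes were below 0 in 5 of 5 cases in the CTNNB1 pair, none of them 2-fold. Their median was -0.54, beside a median of 0 over all named genes, whose share below 0 was not computed. At 1.5-fold 1 of the 5 was lower in the CTNNB1 pair, beside 9.8% of all genes. ENOPH1 had values of -0.64, -0.54 and -0.53, and APIP of -0.56, -0.36 and 0.15. The list's median was -0.36 in the MYC pair, with 4 of 5 below 0, and 0.07 in the MYU pair, with 1 of 5 below 0. Spermidine also donates the group that turns a lysine of the translation factor eIF5A into hypusine. Of these 4 genes EIF5A2, which encodes the second form of the factor, had values of -0.87, -0.76 and 0.23, EIF5A itself -0.31, -0.08 and -0.11, and DHPS, the deoxyhypusine synthase gene, 0.20, 0.37 and 0.09. None of the 4 was 2-fold apart in any pair, with medians of -0.20, 0.01 and 0.14.

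Only 3 of 12 listed transporter genes had a probe set with their symbol in the platform annotation. ATP13A2, which exports polyamines from lysosomes, was 2.38-fold higher with CTNNB1 siRNA (1.25), and it was at 0.51 with MYC siRNA and 0.21 with MYU siRNA. ATP13A3, a polyamine transporter of the same family, had values of -0.60, -0.23 and 0.07. The medians of the 3 were 0, -0.04 and 0.07.

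**Figure D2:**
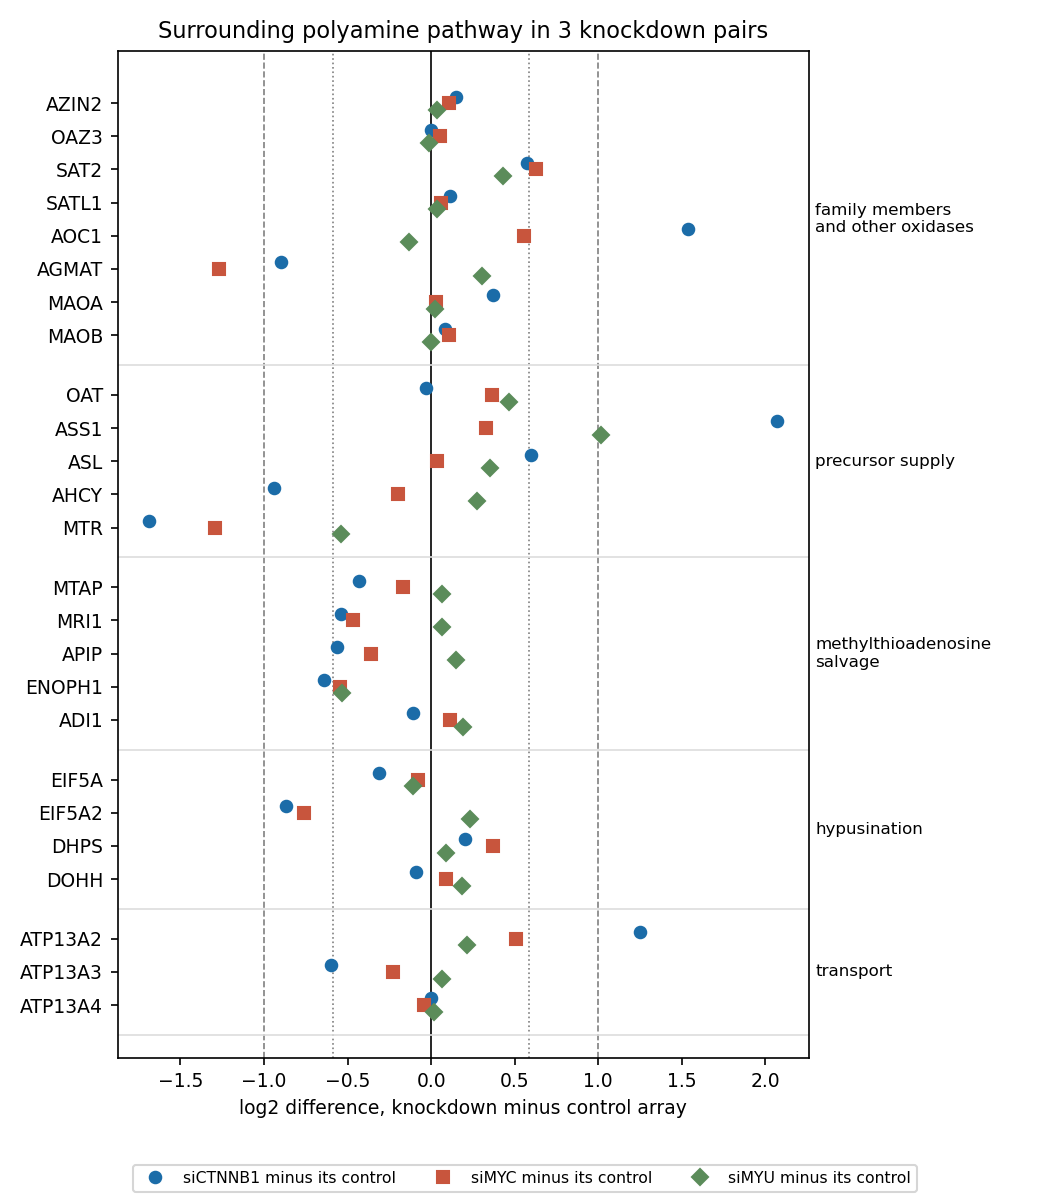
The plot gives the log2 difference of knockdown minus control array (x axis) for the measured genes of 5 surrounding lists (rows) in the CTNNB1 (circles), MYC (squares) and MYU (diamonds) pairs, 1 array on each side, with dashed and dotted lines at 2-fold and 1.5-fold. ASS1, AOC1 and ATP13A2 lie right of the 2-fold line and MTR left of it in the CTNNB1 pair.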

How the data were processed

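Per the labels, RNA of 6 LS180 samples was extracted with TRIsure and biotin-labelled for Affymetrix arrays. How background was corrected and arrays normalized is not given in the sources used here. Values as deposited are log2 expression, centred by the authors pair by pair, since each probe set's 2 values add up to 0 (within 1e-06). The log base was assumed. Of 44629 probe sets, 15835 have 1 gene symbol in the platform annotation and 28794 are unlisted. All 15835 matched the gene table of GRCh38.p14 and gave 14812 genes, a gene's probe sets being averaged. Differences are knockdown minus the control named in the title, called at 2-fold or 1.5-fold. No test was run, as there is 1 array a group, and the number of arrays limits the precision.

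The polyamine genes and the lists were chosen with earlier results of these data known. Named were all 10 polyamine genes, the targeted transcripts, every gene of the 5 surrounding lists past 1.5-fold in a pair and at least 2 genes per list, and the 3 nearest patterns of ODC1, SRM and AMD1. EIF5A, OAT and the markers were named in addition, after their values were seen. Promoter windows came from RefSeq; protein identities, planned beforehand, were not analysed here. The calculations were tested on simulated data. Python 3.11.15, numpy 2.4.6, pandas 2.3.3 and matplotlib 3.10.9 were used.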

Additional observations from a re-analysis of the deposited data

How the results depend on the processing

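In all, 4 alternatives left the counts of polyamine genes at 2-fold as they were in all 3 pairs: array medians set to 0, a gene's probe set nearest to 0, its probe set farthest from 0, and taking out a linear trend of the differences on log10 gene length. Under these the largest move of a polyamine gene's value was 0.00791 with CTNNB1 siRNA, 0.00439 with MYC siRNA and 0.0535 with MYU siRNA. The last was SAT1, at 0.10 with the length trend taken out. Each polyamine gene has 1 probe set, so the choice among probe sets reaches only the background. The median difference over all probe sets was already 0 with MYC siRNA and with MYU siRNA, and it was 0.00773 with CTNNB1 siRNA. Setting array medians to 0 therefore changed nothing in the MYC and MYU pairs. In those pairs only the length trend could move a polyamine gene. At 1.5-fold the number lower in the MYC pair was 1 in place of 0, because SRM passed. A background of 771 genes whose values carry a coarser rounding step, planned as a mark of a high level, had 9.47% of genes 2-fold lower in the CTNNB1 pair, beside 4.14% of all genes, 1.17% beside 0.446% in the MYC pair and 0.13% beside 0.0945% in the MYU pair. The shares 2-fold higher there were 6.1% beside 2.8% in the CTNNB1 pair, 0.778% beside 0.412% in the MYC pair and 0.519% beside 0.0608% in the MYU pair. The step marked 4 of 10 polyamine genes (ODC1, AMD1, SRM and OAZ1) but neither GAPDH nor EEF1A1, and 4.45% of probe sets against 2.62% if the pairs were independent, so its use as a mark of level is in doubt. With the length trend taken out, 0.0405% of all genes were 2-fold higher in the MYU pair, beside 0.0608%. Every difference is taken within its pair. No paired analysis was possible because a replicate block needs several pairs of the same knockdown, and each has 1, so no array could be left out either.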
